A study of Mus musculus with 14 samples.

Results

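The 42 genes described here are imprinted in the mouse: in some or all tissues they are expressed mainly from the copy inherited from one parent. They were chosen by name, and each symbol was found once among the 53843 genes of GENCODE M21 on chromosomes 1 to 19 and X (assembly GRCm38). DMC1 ChIP-SSDS, which recovers the single-strand DNA bound by DMC1 at meiotic double-strand breaks (DSBs), was performed on whole testis of both *Hells* CTRL and *Hells* cKO animals to ask where DSBs are formed with and without the chromatin remodeler HELLS. *Hells* CTRL mice (labelled Hellsfl/Δ) carried a floxed and a deleted *Hells* allele, and *Hells* cKO mice (labelled Hellsfl/Δ;Stra8-iCre) carried the same alleles and a Cre that is driven by the *Stra8* promoter in germ cells entering meiosis. Both groups thus shared the deleted allele, and both expressed the Dom2 variant of PRDM9. *Hells* CTRL mice were 5 weeks old, with 2 testes per replicate, and *Hells* cKO mice were 9 weeks old, with 3 testes per replicate, so age and genotype cannot be told apart. HELLS was still detected by the study in a minority of *Hells* cKO spermatocytes, which limits the model. Each genotype had 2 replicates, which the authors merged into 1 peak list, of 11133 peaks for *Hells* CTRL and 17117 peaks for *Hells* cKO. No replicate spread and no read depth stand behind a peak, and shares are given with exact 95% confidence intervals (CI) that cover counting error only. Genes are not replicates of a genotype, and no test between the genotypes was made.

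An imprinted cluster is usually governed by a control region that carries DNA methylation from only one of the parents. Most of these regions are CpG-island promoters that are methylated in oocytes and unmethylated in sperm, and they often start a paternally expressed gene or a long noncoding RNA that silences its neighbors in *cis*. A few control regions are methylated in sperm instead and lie between genes, upstream of *H19*, between *Dlk1* and *Meg3*, and upstream of *Rasgrf1*. In normal male meiosis PRDM9 places DSBs at its own binding sites, mostly away from promoters, whereas without it DSBs gather at promoters and other open sites. The promoters methylated in oocytes carry methylation on the maternal copy in somatic cells and on neither copy in male meiotic cells.

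A peak was assigned to a gene when its center, the midpoint of the deposited interval, was within 1 kb of any transcript start or inside the gene body. By this rule the 42 genes held 19 *Hells* CTRL peaks and 31 *Hells* cKO peaks. The centers of the strongest *Hells* CTRL peaks are shown first, with those of *Commd1* and *H13*, which were added because they contain words typical of *Hells* CTRL centers. Capitals mark any of 20 words of 8 bases, on either strand, that were most frequent at the centers of the other *Hells* CTRL peaks relative to sequence 1000 bp away.
*Ube3a*, chr7:59234081-59234281, plus strand: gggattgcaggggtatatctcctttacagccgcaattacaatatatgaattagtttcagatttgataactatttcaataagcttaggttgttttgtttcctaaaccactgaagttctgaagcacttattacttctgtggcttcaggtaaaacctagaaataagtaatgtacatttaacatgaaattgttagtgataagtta
*Trappc9*, chr15:72738478-72738678, plus strand: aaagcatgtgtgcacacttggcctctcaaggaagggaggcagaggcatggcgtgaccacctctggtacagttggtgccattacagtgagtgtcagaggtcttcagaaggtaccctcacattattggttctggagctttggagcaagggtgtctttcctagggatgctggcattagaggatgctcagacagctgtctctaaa
*Sgce*, chr6:4728640-4728840, plus strand: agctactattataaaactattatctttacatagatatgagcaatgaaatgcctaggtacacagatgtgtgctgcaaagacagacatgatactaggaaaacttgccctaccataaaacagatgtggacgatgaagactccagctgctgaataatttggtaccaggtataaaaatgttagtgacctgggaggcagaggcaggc
*Igf2r* and *Airn*, chr17:12751175-12751375, plus strand: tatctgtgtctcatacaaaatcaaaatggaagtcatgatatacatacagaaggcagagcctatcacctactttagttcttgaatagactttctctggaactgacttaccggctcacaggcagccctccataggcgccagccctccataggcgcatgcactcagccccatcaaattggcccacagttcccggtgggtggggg
*Commd1*, chr11:22920801-22921001, plus strand: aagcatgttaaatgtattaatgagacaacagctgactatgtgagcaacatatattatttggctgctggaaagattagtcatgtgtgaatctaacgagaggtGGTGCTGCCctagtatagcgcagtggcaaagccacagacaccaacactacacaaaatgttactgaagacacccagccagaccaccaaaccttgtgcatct
*H13*, chr2:152689533-152689733, plus strand: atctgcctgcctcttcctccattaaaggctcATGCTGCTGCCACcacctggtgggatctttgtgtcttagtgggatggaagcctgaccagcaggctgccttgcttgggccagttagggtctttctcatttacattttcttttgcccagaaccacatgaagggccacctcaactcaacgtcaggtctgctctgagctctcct
The words appeared in the *Commd1* and *H13* windows only, and the 4 strongest peaks had no such word in these windows. Of the 19 *Hells* CTRL peaks in imprinted genes, 6 had a word within 100 bp of the center, as against 36.0% of all *Hells* CTRL peaks (CI 35.1 to 36.9%). A word was also found at 4 of the 31 *Hells* cKO peaks, and at 14.5% of the whole *Hells* cKO list.

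The centers of the strongest *Hells* cKO peaks at maternally methylated islands (*Plagl1*, *Inpp5f* downstream start, *Peg10* and *Nespas*) and at other island starts (*Ube3a*, *Inpp5f* main start and *Igf2r*) are shown next. They are followed by the islands of *Nnat* and of *Gnas* exon 1A, which are maternally methylated and had no peak. Each window of 151 bases was moved to the nearest place free of exons of the imprinted genes, and capitals mark CpG dinucleotides.
*Plagl1*, chr10:13091025-13091175, plus strand: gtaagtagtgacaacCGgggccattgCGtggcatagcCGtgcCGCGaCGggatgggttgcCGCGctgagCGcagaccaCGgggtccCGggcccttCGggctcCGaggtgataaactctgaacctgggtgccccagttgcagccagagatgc
*Inpp5f*, downstream start, chr7:128688213-128688363, plus strand: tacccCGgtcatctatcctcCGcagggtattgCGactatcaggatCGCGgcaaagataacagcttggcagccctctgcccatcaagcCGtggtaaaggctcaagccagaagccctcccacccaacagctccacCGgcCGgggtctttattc
*Peg10* and *Sgce*, chr6:4747579-4747729, plus strand: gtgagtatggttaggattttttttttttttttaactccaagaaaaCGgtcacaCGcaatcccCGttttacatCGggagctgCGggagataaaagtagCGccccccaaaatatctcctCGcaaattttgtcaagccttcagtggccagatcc
*Nespas*, chr2:174294919-174295069, plus strand: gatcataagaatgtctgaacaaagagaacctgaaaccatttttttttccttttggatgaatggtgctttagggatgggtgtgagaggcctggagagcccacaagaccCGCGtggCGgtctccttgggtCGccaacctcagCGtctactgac
*Ube3a*, chr7:59228599-59228749, plus strand: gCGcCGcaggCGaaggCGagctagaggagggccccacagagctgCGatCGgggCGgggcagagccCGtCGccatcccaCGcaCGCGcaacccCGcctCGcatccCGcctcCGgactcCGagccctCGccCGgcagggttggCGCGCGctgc
*Inpp5f*, main start, chr7:128611692-128611842, plus strand: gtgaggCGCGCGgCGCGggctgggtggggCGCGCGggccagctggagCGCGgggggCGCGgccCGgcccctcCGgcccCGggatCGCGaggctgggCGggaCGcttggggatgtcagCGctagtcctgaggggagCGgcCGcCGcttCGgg
*Igf2r*, chr17:12769249-12769399, plus strand: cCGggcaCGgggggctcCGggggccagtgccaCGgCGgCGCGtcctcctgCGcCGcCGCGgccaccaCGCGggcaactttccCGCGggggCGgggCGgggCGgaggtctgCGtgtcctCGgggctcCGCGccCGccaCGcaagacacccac
*Nnat* and *Blcap*, chr2:157560536-157560686, plus strand: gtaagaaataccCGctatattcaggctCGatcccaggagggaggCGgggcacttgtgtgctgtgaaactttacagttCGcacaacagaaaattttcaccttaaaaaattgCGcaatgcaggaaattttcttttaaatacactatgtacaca
*Gnas*, exon 1A, chr2:174327419-174327569, plus strand: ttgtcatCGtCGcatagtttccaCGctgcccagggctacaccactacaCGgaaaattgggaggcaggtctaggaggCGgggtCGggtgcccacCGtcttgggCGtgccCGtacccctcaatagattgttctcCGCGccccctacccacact
In these windows the *Ube3a*, *Inpp5f* main and *Igf2r* starts had 22, 24 and 24 CpG dinucleotides. The windows of *Plagl1*, the *Inpp5f* downstream start and *Peg10* had 13, 8 and 7. The *Nespas* window, moved 221 bp from the center, had 5, and 50 of its 151 bases were inside the island. In the islands without a peak the windows had 5 (*Nnat*) and 11 (*Gnas* exon 1A). The *Nnat* window was moved 413 bp from the middle of its island. The *Ube3a* and *Peg10* windows were moved 430 and 226 bp from the peak centers. Moved windows need not show the CpG content of an island. Within 250 bp of the starts themselves there were up to 36 CpG dinucleotides at *Nnat* and 47 at *Gnas* exon 1A. The *Hells* CTRL windows, although longer, had 1 to 4.

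Peaks were present in imprinted genes in both genotypes, but at different places. In the *Hells* CTRL list, 16 of the 42 genes had a peak (38.1%, CI 23.6 to 54.4%), where 9.43% of all genes had one. In the *Hells* cKO list, 27 of the 42 genes had a peak (64.3%, CI 48.0 to 78.4%), where 26.7% of all genes had one. The annotated genes include many noncoding genes and pseudogenes. Of the 35 protein-coding imprinted genes, 13 had a *Hells* CTRL peak (37.1%, CI 21.5 to 55.1%). A *Hells* cKO peak was found in 23 of them (65.7%, CI 47.8 to 80.9%), and the shares of all protein-coding genes were 18.4% and 50.2%. The imprinted genes were above these shares, with intervals that excluded 18.4% in *Hells* CTRL and included 50.2% in *Hells* cKO.

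The lists differed in where the peaks lay in these genes. Of the 19 *Hells* CTRL peaks, 1 was at a start and 18 were in gene bodies only, whereas 25 of the 31 *Hells* cKO peaks were at a start and 6 in bodies only. In the whole lists, 873 of 11133 *Hells* CTRL peaks and 10528 of 17117 *Hells* cKO peaks were within 1 kb of a start of any gene. The lists also hold peaks between genes, which the rule for imprinted genes leaves out, so these shares are not of like sets. A *Hells* CTRL peak lay within 1 kb of a start in 1 of the 42 genes (2.38%, CI 0.060 to 12.6%), and this was *Igf2r*. The shares over all genes and over protein-coding genes were 1.72% and 2.70%. A *Hells* cKO peak lay within 1 kb of a start in 22 genes (52.4%, CI 36.4 to 68.0%), compared with 23.6% of all genes. For the protein-coding imprinted genes the count was 19 of 35 (54.3%, CI 36.6 to 71.2%), and the share of all protein-coding genes, 45.6%, was inside this interval.

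Over the merged gene bodies, 2.53 Mb in all, there were 7.51 *Hells* CTRL peaks (exact Poisson CI 4.52 to 11.7) and 11.5 *Hells* cKO peaks (CI 7.68 to 16.5) per Mb. Over all protein-coding gene bodies there were 5.63 and 10.6 per Mb, and over the whole assembled genome 4.35 and 6.69. The intervals of the imprinted genes included the densities of protein-coding gene bodies in both lists.

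No peak of an imprinted gene was shared between the genotypes. Peaks are common here when their centers are at most 400 bp apart, and 0 of 19 *Hells* CTRL peaks (CI up to 17.6%) and 0 of 31 *Hells* cKO peaks (CI up to 11.2%) met this. Over the whole lists 1129 peaks were common, 10.1% of *Hells* CTRL and 6.60% of *Hells* cKO peaks, and at these shares few common peaks are to be found among 19 or 31. The closest approach was in *H13*, where the centers were 2366 bp apart, and the median distance from a *Hells* CTRL peak to the nearest *Hells* cKO center was 24244 bp. Peaks of both lists were found in 15 genes (*Airn*, *Commd1*, *Copg2*, *Ddc*, *Gnas*, *H13*, *Igf2r*, *Impact*, *Kcnq1ot1*, *Mest*, *Sgce*, *Snrpn*, *Trappc9*, *Ube3a* and *Usp29*), in each case at separate places. How often all genes have peaks of both lists, of a single list alone or of neither was not counted. The numbers of imprinted genes in these groups are therefore description only. The plot of percentiles by gene shows the peaks of the imprinted genes in both lists.

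**Figure D1:**
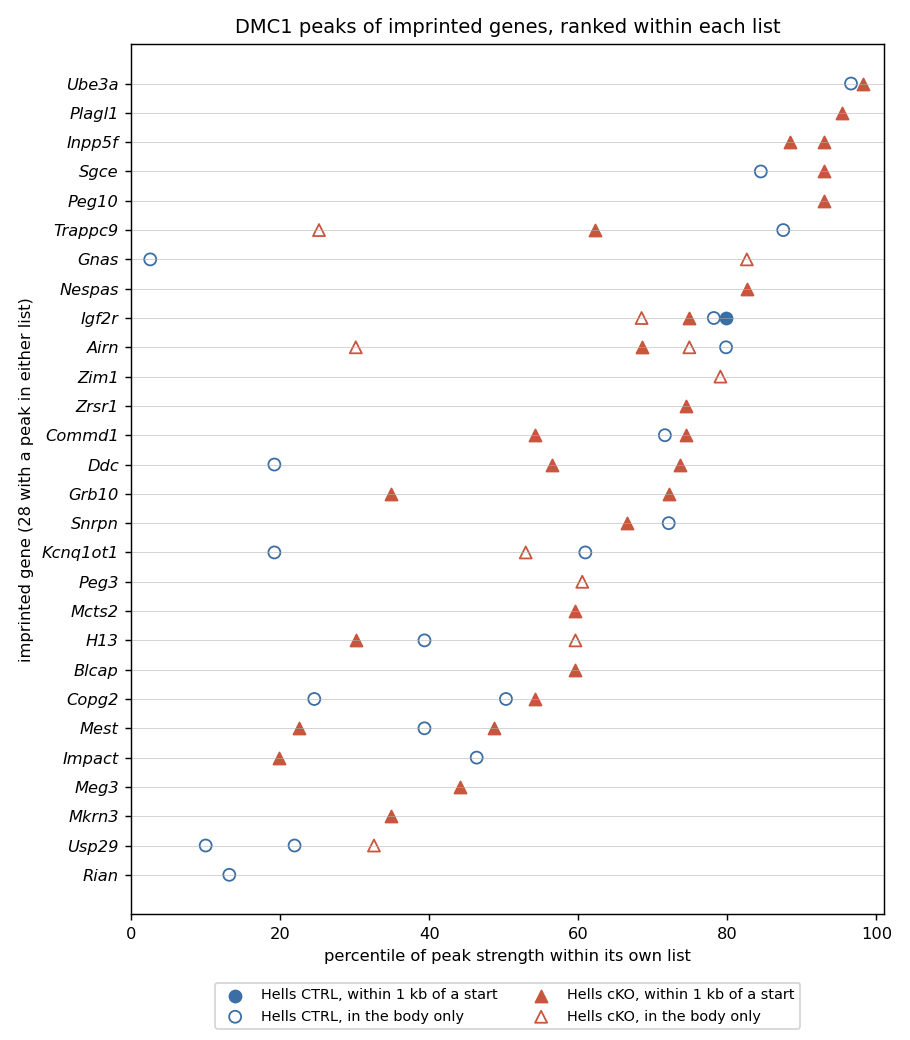
Percentile of peak strength within its own list (x axis) for each of the 28 imprinted genes with a peak (y axis), with circles for *Hells* CTRL and triangles for *Hells* cKO, filled when the center is within 1 kb of a start of that gene. A peak shared by overlapping genes is drawn for each of them. Filled circles are confined to *Igf2r*, and filled triangles run from *Impact* (percentile 19.8) to *Ube3a* (98.2).

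The starts were then divided by what is known of their methylation. Starts of 1 gene less than 500 bp apart were joined into start regions. Of these, 22 were in a CpG island that is methylated on the maternal copy from the oocyte onward, and the other 117 comprised 44 in another CpG island and 73 in no island. A *Hells* cKO peak was present at 13 of the 22 maternally methylated starts (59.1%, CI 36.4 to 79.3%) and at 12 of the 44 other island starts (27.3%, CI 15.0 to 42.8%). The share over all island start regions of the genome was 45.4%. The interval of the maternally methylated starts included this value, and the interval of the other island starts was below it, but this count treats the several starts of a gene as separate.

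Starts outside islands had few peaks. In *Hells* cKO, 5 of 73 had one (6.85%, CI 2.26 to 15.3%), compared with 1.76% of all start regions without an island, which was below the interval. Several starts of a gene were counted separately here too. The 5 were a pair of *Ddc* starts, the upstream start of *Mest*, and starts of *Grb10* and *Impact*. The *Grb10* peak was centered in a nearby island of the gene, and the *Impact* peak overlapped the maternally methylated island. In *Hells* CTRL, 0 of 22 maternally methylated starts (CI up to 15.4%), 0 of 44 other island starts (CI up to 8.04%) and 1 of 73 starts without an island (1.37%, CI 0.035 to 7.40%) had a peak. The corresponding shares of all genes were 1.25% for island starts and 1.11% for the rest, so that few peaks were to be found at this number of starts.

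**Figure D2:**
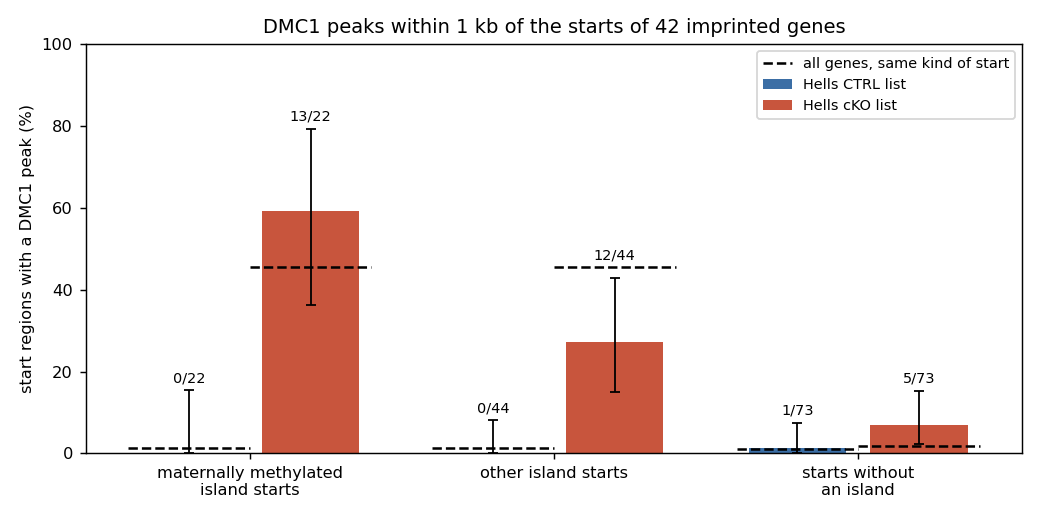
Percent of the start regions of the imprinted genes with a DMC1 peak center within 1 kb (y axis), by kind of start (x axis) and list (color), with exact 95% CI as error bars and counts above. Dashed lines give the share over all genes for the same kind of start: the *Hells* cKO share is 59.1% at maternally methylated and 27.3% at other island starts, and the line is at 45.4% for both.

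A gene can have several starts of a class, and *Dlk1*, *Igf2*, *Cdkn1c* and *Gnas* had 3 or 4 other island starts each, all without a peak. With genes as units, a count added after these values had been seen, 12 of 19 genes with a maternally methylated start had a *Hells* cKO peak at one (63.2%, CI 38.4 to 83.7%), and 11 of 27 genes with another island start (40.7%, CI 22.4 to 61.2%). Of all genes with an island start, 53.0% had one, inside both intervals.

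Several starts can also lie in 1 island, so islands were counted as units. The 22 maternally methylated starts lay in 17 islands, and 11 of these (64.7%, CI 38.3 to 85.8%) had a *Hells* cKO peak within 1 kb of a start. Of the 39 other islands, 12 had one (30.8%, CI 17.0 to 47.6%), and of all islands at starts 41.7% (1.28% in *Hells* CTRL). The intervals of both classes included the share of all islands. When islands were counted as hit if the deposited peak interval overlapped them, a rule added after these values had been seen, the counts were 14 of 17 (82.4%, CI 56.6 to 96.2%) and 12 of 39 (30.8%), and 42.4% of all islands at starts were hit. By this rule the intervals of the classes did not overlap. A longer island is more easily overlapped by a peak, and both the shortest and the longest of these islands were among the other islands. An effect of island length on these counts was not tested. The islands were not independent units, since a gene can have several. The 14 islands were overlapped by 13 peaks and the 12 by 11, because single peaks of *Inpp5f* and *Meg3* overlapped neighboring islands. With the center inside the island itself, the counts were 10 of 17 and 10 of 39, and 35.7% of all islands.

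The islands were not alike in CpG content, and the shares were set beside it. The largest count of CpG dinucleotides 250 bp to each side of a start had a median of 33 in both the maternally methylated and the other island starts of imprinted genes, and of 29 over all island starts. Over all island starts, the share with a *Hells* cKO peak was 16.3% at 0 to 19 CpG dinucleotides, 50.9% at 20 to 39, 69.8% at 40 to 59, and 71.7% from 60 upward. For starts with 0 to 19 CpG dinucleotides, 1 of 1 maternally methylated and 1 of 10 other island starts had a peak. The classes thus differed in how many starts were poor in CpG dinucleotides, although their medians were equal. For starts with 20 to 39, 7 of 14 maternally methylated and 5 of 17 other island starts had a peak. For those with 40 to 59, the counts were 4 of 6 and 2 of 9, and from 60 upward they were 1 of 1 and 4 of 8. These counts are small, and several starts of a gene enter them separately.

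The maternally methylated islands are described first, in order of the strength of their *Hells* cKO peak. Strength is the score deposited by the authors, which their methods describe as a fragment count normalized to local background and to library size. Since it could not be normalized between the genotypes, it is followed by the percentile within its list. The strongest of these peaks was at *Plagl1*, a zinc finger transcription factor gene (chr10:13089820-13092245, strength 173, percentile 95.4). Its center was 20 bp from a start, and there were 50 CpG dinucleotides within 250 bp of it. *Plagl1* had no *Hells* CTRL peak, and the nearest one was centered 82570 bp away.

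*Inpp5f* encodes an inositol phosphatase and has a downstream, intronic start that is maternally methylated and paternally expressed. A *Hells* cKO peak was centered within 1 kb of this start (chr7:128687277-128689298, strength 145, percentile 93.0). The upstream main start, which is not the imprinted one, had a separate peak (chr7:128610475-128612902, strength 110, percentile 88.4). Both starts of the gene were therefore among the stronger *Hells* cKO peaks.

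*Peg10*, a gene derived from a retrotransposon and needed in the placenta, and *Sgce*, which encodes epsilon-sarcoglycan, start back to back from 1 island. They shared a *Hells* cKO peak (chr6:4745678-4749177, strength 144, percentile 92.9), 22 bp from the *Peg10* start and 221 bp from the *Sgce* start. The *Hells* CTRL peak of *Sgce* lay in an intron 18688 bp away (chr6:4727603-4729876, strength 245, percentile 84.5). In this pair the *Hells* CTRL peak was within the gene and the *Hells* cKO peak at its promoter.

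The *Gnas* cluster encodes the alpha subunit of the stimulatory G protein and several further transcripts, with maternally methylated islands at the antisense RNA *Nespas*, at the XL start and at exon 1A. The *Nespas* island had a *Hells* cKO peak (chr2:174294084-174296345, strength 84, percentile 82.6), 174 bp from its start and inside the *Gnas* body. The XL start was 2644 bp from that center and the exon 1A start 32355 bp, and neither island was overlapped by a peak. *Gnas* also had 3 start regions in other islands, among them those of the Nesp and Gs alpha transcripts, and none of the 3 had a peak. In *Hells* CTRL, *Gnas* held a peak in an intron with the lowest strength of the imprinted genes (17, percentile 2.52).

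*Zrsr1*, a retrogene related to a splicing factor, lies in an intron of *Commd1*, a gene of copper handling. The *Hells* cKO peak on its island (chr11:22971973-22974524, strength 61, percentile 74.5) was 21 bp from a *Zrsr1* start and 390 bp from a *Commd1* start. The main *Commd1* island start, outside the methylated island, had a weaker peak (strength 34, percentile 54.2). The *Hells* CTRL peak of *Commd1* lay in an intron 36046 bp from a start (strength 136, percentile 71.6).

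*Airn* is the long noncoding RNA that silences *Igf2r* and its neighbors on the paternal copy, and *Igf2r* encodes the receptor that clears IGF2. The maternally methylated *Airn* start had a *Hells* cKO peak (chr17:12740371-12742532, strength 50, percentile 68.5), 54 bp from the start. The *Igf2r* start, in an island that is not methylated in oocytes, had a peak of similar rank (chr17:12768391-12770438, strength 62, percentile 74.9), 249 bp from the start and with 64 CpG dinucleotides. A weak peak in the *Airn* body (strength 20) was 255 bp from a start of *Mas1*, which is not among the 42 genes. In *Hells* CTRL the 2 genes shared a peak (chr17:12750236-12752313, strength 194, percentile 79.8), 475 bp from the start of a short processed *Igf2r* transcript, and *Igf2r* had another in an exon (strength 179, percentile 78.2). The former was the single *Hells* CTRL peak at a start of an imprinted gene, and it lay in an intron with 5 CpG dinucleotides. *Slc22a3*, an organic cation transporter gene silenced by *Airn* in the placenta, had no peak.

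*Snrpn*, which encodes a spliceosomal protein, starts in the control region of the Prader-Willi and Angelman cluster. Its *Hells* cKO peak (chr7:60003040-60005657, strength 47, percentile 66.5) overlapped the island but was centered 762 bp into the gene. The *Hells* CTRL peak of *Snrpn* was in an intron 19942 bp from the start (strength 139, percentile 72.1). Of the paternally expressed genes of the cluster that acquire methylation later, *Mkrn3*, a ring finger gene, had a weak *Hells* cKO peak 190 bp from its start (strength 22, percentile 34.9), and the MAGE family genes *Ndn* and *Magel2* had no peak in either list.

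*Ube3a* is the ubiquitin ligase gene that is maternally expressed in neurons of the same cluster, and its start is in an unmethylated island. It had the strongest peaks of the imprinted genes in both lists. The *Hells* cKO peak was at the start (chr7:59227930-59230277, strength 242, percentile 98.2), 73 bp away and with 65 CpG dinucleotides. The *Hells* CTRL peak was in an intron, 4745 bp from a start (chr7:59232297-59236064, strength 633, percentile 96.6), with 2 CpG dinucleotides. The centers were 5077 bp apart, and their intervals did not touch.

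*Mcts2* is a retrogene in an intron of *H13*, which encodes a signal peptide peptidase. The *Mcts2* start had a *Hells* cKO peak (chr2:152686240-152688293, strength 39, percentile 59.6) and the *H13* main start a weaker one (strength 20, percentile 30.1). The *Hells* CTRL peak of *H13* (strength 47, percentile 39.3) was in the intron next to *Mcts2*, at the 2366 bp given above. *Mest*, which encodes a protein of the hydrolase family, had a *Hells* cKO peak at its methylated island (strength 30, percentile 48.7) and one at the upstream start without an island (strength 17, percentile 22.5). Its *Hells* CTRL peak was in an intron (strength 47, percentile 39.3). The adjoining *Copg2*, a coatomer subunit gene, had a *Hells* cKO peak at its own island start (strength 34, percentile 54.2) and *Hells* CTRL peaks of strength 64 and 32 in introns.

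Peaks at the islands of *Kcnq1ot1*, *Peg3* and *Impact* overlapped the island but were centered more than 1 kb from its starts. *Kcnq1ot1*, the long noncoding RNA that silences the *Cdkn1c* cluster, had a *Hells* cKO peak centered 1115 bp into the transcript (chr7:143294131-143296736, strength 33, percentile 52.9). *Peg3*, a zinc finger gene that shares its island with the ubiquitin peptidase gene *Usp29*, had one 1475 bp into the gene (chr7:6727201-6730686, strength 40, percentile 60.5). *Impact*, a regulator of translation, had one of strength 16 (percentile 19.8) that was 785 bp from an upstream start without an island and 1241 bp from the nearest island start. Between 1 and 2 kb from a *Hells* cKO center there were also a *Zrsr1* start (1244 bp), a *Mest* start without an island (1630 bp), the *Usp29* island starts (1634 bp) and a *Grb10* start in another island (1700 bp). Just inside the reach of 1 kb were the upstream *Impact* start at 785 bp and the *Snrpn* start at 762 bp.

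In *Hells* CTRL, *Kcnq1ot1* had peaks of strength 90 and 28, more than 34 kb from its start, and *Usp29* peaks of strength 30 and 22. *Impact* had a *Hells* CTRL peak of strength 57 (percentile 46.3). *Usp29* had another *Hells* cKO peak in its body (strength 21, percentile 32.6). *Zim1*, a maternally expressed zinc finger gene next to *Peg3*, had no *Hells* CTRL peak and a *Hells* cKO peak in a coding exon (chr7:6676559-6678422, strength 73, percentile 79.1), 11181 bp from its start. It was the strongest *Hells* cKO peak away from a start in these genes.

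*Grb10*, an adaptor of growth factor receptors, is expressed from the maternal copy at its major start and from the paternal copy at a downstream, maternally methylated start used in brain. The major start had a *Hells* cKO peak of strength 56 (percentile 72.1) and the downstream start one of strength 22 (percentile 34.9), although the latter had the most CpG dinucleotides of all peaks in these genes (74). *Ddc*, the neighboring gene for aromatic amino acid decarboxylase, had *Hells* cKO peaks at a pair of starts without an island (strengths 59 and 36) and a *Hells* CTRL peak of strength 28. *Grb10* had no *Hells* CTRL peak.

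*Nnat*, a neuronal proteolipid gene in an intron of *Blcap*, had no peak in either list. Its maternally methylated island, which also holds a *Blcap* start, was 6075 bp from the nearest *Hells* cKO center. That center was at the main *Blcap* start, in an unmethylated island (chr2:157565330-157567215, strength 39, percentile 59.6). The map of islands and peaks places the 14 overlapped islands beside those of *Nnat* and *Gnas*.

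**Figure D3:**
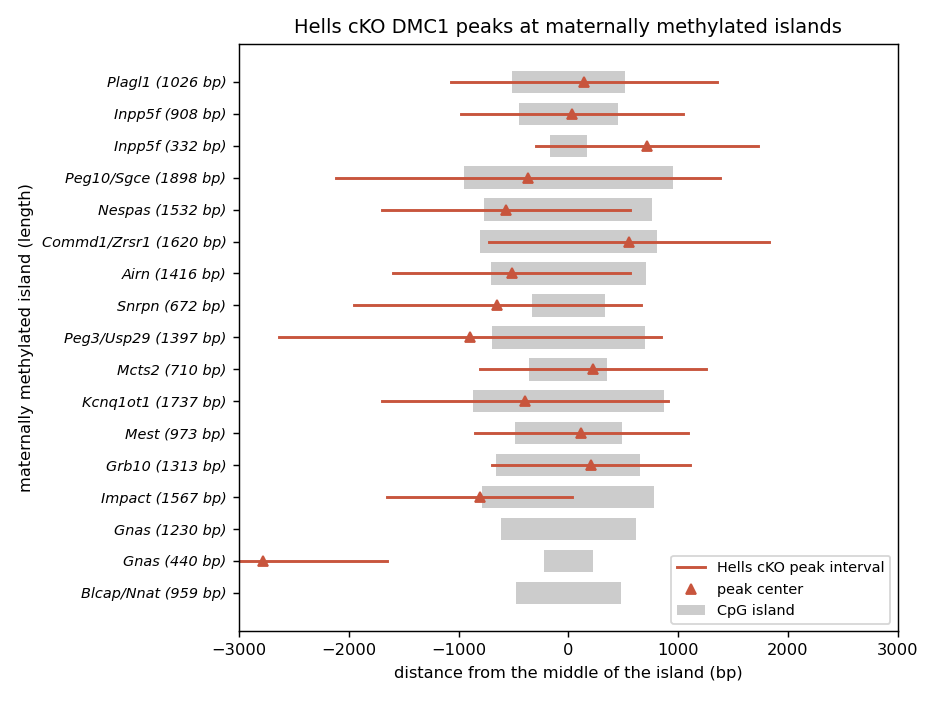
Position of *Hells* cKO peak intervals (red lines) and centers (triangles) relative to the middle of each of the 17 maternally methylated islands (gray bars), in bp along the plus strand. Rows are ordered by peak strength, and 14 islands are overlapped by an interval. The islands of *Nnat* and of the *Gnas* XL and exon 1A starts, in the bottom rows, are not.

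Of the 8 genes in clusters controlled by a paternally methylated region, 1 had a *Hells* CTRL peak and 1 a *Hells* cKO peak (12.5% each, CI 0.316 to 52.7%). Both intervals included the shares of all genes given above. *Meg3*, a maternally expressed noncoding RNA, had a *Hells* cKO peak near its starts (chr12:109540208-109542695, strength 27, percentile 44.1). *Rian*, a noncoding RNA that hosts small nucleolar RNAs in the same cluster, had only a *Hells* CTRL peak (strength 24, percentile 13.1), and was the only one of the 42 genes with a peak in *Hells* CTRL alone. *Dlk1*, which encodes a transmembrane protein related to Notch ligands, *Mirg*, a host of microRNAs, and *Dio3*, a deiodinase gene, had none. No peak of either list lay between *Dlk1* and *Meg3*, where the control region is. The nearest peaks upstream of *Meg3* were 103.8 kb away, beyond *Dlk1* and outside the 42 genes. Their strength was 274 in *Hells* cKO (percentile 98.9) and 29 in *Hells* CTRL (percentile 20.6). Their centers were 15669 and 15651 bp upstream of *Dlk1*, so that they were common to both lists by the rule given above.

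*H19*, a noncoding RNA, and *Igf2*, the growth factor gene it is coordinated with, had no peak. The nearest upstream of *H19*, on the side of its control region, were 717.3 kb away in *Hells* cKO and 589 kb away in *Hells* CTRL. *Rasgrf1*, an exchange factor gene, had no peak either, and the nearest upstream were at 82.8 kb in *Hells* cKO (strength 23) and 615.1 kb in *Hells* CTRL. At these 3 control regions, therefore, no peak was called in either list.

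Further genes without any peak were the maternally expressed *Cdkn1c*, a cell cycle inhibitor, *Phlda2*, a placental growth regulator, and *Ascl2*, a transcription factor, all of the *Kcnq1ot1* side of chromosome 7. Their island starts held between 35 and 63 CpG dinucleotides, and the nearest *Hells* cKO centers were 4.17 kb from *Cdkn1c*, 37.3 kb from *Phlda2* and 326.2 kb from *Ascl2*. *Kcnk9*, which encodes a potassium channel, had no peak. The nearest centers were 98.7 kb from its start in both lists (strength 12 in *Hells* cKO and 221 in *Hells* CTRL). They were a common site, outside the 42 genes. The neighboring *Trappc9*, a vesicle tethering gene, had a *Hells* cKO peak at its start (strength 42, percentile 62.3) and the second strongest *Hells* CTRL peak of these genes, in an intron (chr15:72737636-72739519, strength 287, percentile 87.5). A weak *Hells* cKO peak in another *Trappc9* intron (chr15:72809320-72811531, strength 18, percentile 25.2) was centered 102 bp from the start of *Peg13*, a paternally expressed noncoding RNA that is not among the 42 genes. In all, 14 of the 42 genes had no peak in either list (*Ascl2*, *Cdkn1c*, *Dio3*, *Dlk1*, *H19*, *Igf2*, *Kcnk9*, *Magel2*, *Mirg*, *Ndn*, *Nnat*, *Phlda2*, *Rasgrf1* and *Slc22a3*). The share of all genes without a peak in either list was not counted.

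Strengths of these peaks were ordinary for their lists. The 19 *Hells* CTRL peaks had a median strength of 57 (range 17 to 633) and a median percentile of 46.3, against a list median of 63. The 31 *Hells* cKO peaks had a median strength of 39 (range 16 to 242) and a median percentile of 59.6, against a list median of 31. Of these, the 25 at a start had a median strength of 42, the same as the 10528 *Hells* cKO peaks within 1 kb of any start. The 13 peaks on maternally methylated islands had a median of 47 (range 16 to 173), and the 11 on other islands a median of 39 (range 20 to 242), so their ranges overlapped almost wholly.

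The CpG content at the center separated the peaks of the genotypes without overlap. It was 0 to 10 CpG dinucleotides within 250 bp for the 19 *Hells* CTRL peaks (median 4) and 11 to 74 for the 31 *Hells* cKO peaks (median 23). In the whole lists, 93.7% of *Hells* CTRL and 14.2% of *Hells* cKO peaks had at most 10. The medians of the whole lists were 4 and 24, close to those of the imprinted genes. For *Hells* cKO this closeness did not hold by place. The 25 peaks at a start had a median of 25 (quartiles 20 and 50), below the 39 (quartiles 24 and 53) of all *Hells* cKO peaks within 1 kb of a start. The 6 peaks in bodies only had a median of 18, above the 13 of all *Hells* cKO peaks farther from a start.

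**Figure D4:**
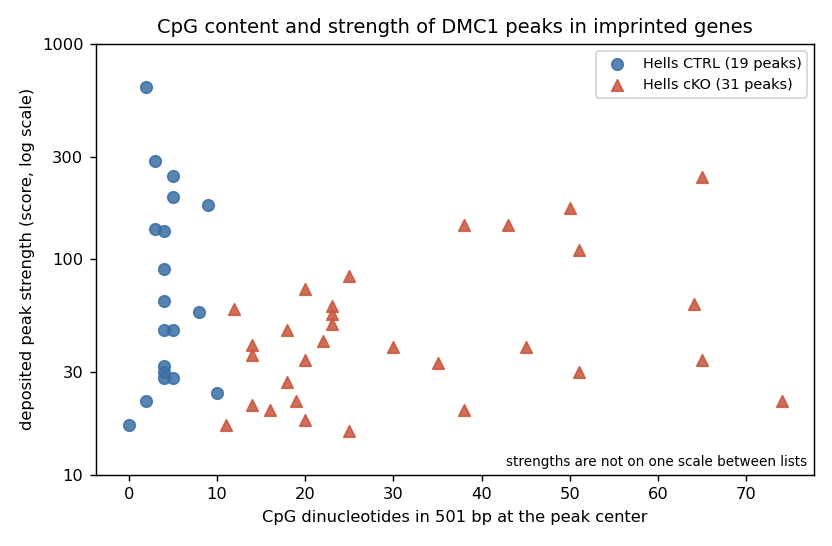
Deposited peak strength (y axis, log scale) against the CpG dinucleotides counted 250 bp to each side of its center (x axis) for the 19 *Hells* CTRL (circles) and 31 *Hells* cKO (triangles) peaks of imprinted genes. All circles are at or below 10 CpG dinucleotides and all triangles are above, while the strengths, which are not on a common scale, overlap.

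The hexamer TGCCGC, which the zinc finger protein ZFP57 binds in its methylated form to keep imprints after fertilization, was counted on both strands within 500 bp of the starts. It was present at 19 of the 22 maternally methylated starts, at 22 of the 44 other island starts, and at 43.3% of all island starts. The density was 2.63 matches per kb at maternally methylated starts, 0.69 at other island starts and 0.61 over all island starts. *Mest* had 10 matches, *Plagl1* and *Nnat* had 6 each, and *Kcnq1ot1*, *Impact* and 1 of the *Zrsr1* starts had none. A *Hells* cKO peak was found at 13 of the 19 maternally methylated starts with the hexamer and at 0 of the 3 without it, and at 9 of 22 and 3 of 22 other island starts. The 0 of 3 depends on the reach of 1 kb. The *Kcnq1ot1*, *Impact* and *Zrsr1* starts without the hexamer were 1115, 1241 and 1244 bp from a *Hells* cKO center. The islands of all 3 were overlapped by a *Hells* cKO peak interval. Over all island starts, 7159 of the 12845 with the hexamer had a *Hells* cKO peak, as did 13459 of all 29640. Counted the other way, the hexamer was present at 53.2% of island starts with a *Hells* cKO peak and at 35.1% of those without one. These last shares do not compare with the 13 of 19. The core GCCATNTT of the YY1 motif was present at 3 of 22 and 6 of 44 starts, compared with 18.5% of all island starts.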

How the data were processed

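DMC1 ChIP-SSDS was analysed in 2 *Hells* CTRL and 2 *Hells* cKO libraries of whole testis, and the 5hMeDIP libraries were not analysed here. The authors trimmed reads to 50 bp, mapped them to mm10 and kept unique, non-duplicated ones. They called peaks with MACS2 and selected a final list per genotype from pooled replicates with the Irreproducible Discovery Rate. The deposited value of a peak is the authors' score, its strength: by their methods a count of fragments after re-centering, scaled to local background and to library size. All deposited strengths are whole numbers. Read depth is unknown from the lists. Unique mapping can leave repeated or duplicated sequence, including retrogene copies, with fewer reads.

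Starts were those of all GENCODE M21 transcripts and sequence was GRCm38.p6. CpG islands were computed as at least 200 bp with over 50% G and C and an observed to expected CpG ratio over 0.6, within 250 bp of a start. Maternally methylated starts were assigned from general knowledge of mouse imprinting and the annotation. Percentiles are ranks within a list. The genes, classes and motifs were chosen with earlier results of these data known. All 42 genes were described: those with a peak with their values, those without one by name. The printed windows were the centers of the strongest peaks, with the additions named there. Words of 8 bases were learned from *Hells* CTRL peaks outside the 42 genes, among words at 100 or more centers. Alternatives were the reach to a start, interval overlap, stricter islands, basic transcripts, stronger peaks, and islands or genes as units. The joins were tested on simulated peaks. Computation was done in Python 3.11.15 with pandas 2.3.3 and numpy 2.4.6, intervals were from scipy 1.17.1 and plots from matplotlib 3.10.9.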

Additional observations from a re-analysis of the deposited data

How the results depend on the processing

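No paired analysis was possible because the authors merged the replicates of each genotype, and for the same reason no replicate could be left out. The number of genes with a *Hells* CTRL peak at a start was 1, and became 3 with a reach of 2 kb, 2 with any overlap of the deposited interval, and 0 with GENCODE basic transcripts, since the *Igf2r* start in question belongs to a transcript outside that set. The number of genes with any *Hells* CTRL peak was 16, and 9 when peaks at or above the median strength alone were used. The shares of all genes were 9.43% and 5.41%. The percent of maternally methylated starts with a *Hells* cKO peak was 59.1. It was 81.8 (CI 59.7 to 94.8) both with a reach of 2 kb and with any overlap of the interval. For the other island starts the percent was 27.3, and 29.5 (CI 16.8 to 45.2) in both of these settings. The share over all island starts of the genome was not counted under the wider settings. With genes as units, the percents of maternally methylated and other island starts were 63.2 and 40.7. A reach of 500 bp left a peak at 11 of the 22 maternally methylated starts. The rules that asked for overlap of a peak with the island itself, or for a center in it, and genes as units were added after the data had been seen. Small counts, the hand-made class of each start, shared islands and the untested effect of island length limit the contrast between classes.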
